A study of Mus musculus with 4 samples.

Results

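Accessible regions lying inside protein-coding genes and away from the gene ends were examined in cultured natural killer (NK) cells of the mouse. Of 91266 accessible regions in the series, 42179 (46.2%) overlapped the span of a protein-coding gene and lay more than 1000 bp from the end of every such gene. These are called gene-interior regions. A further 15607 regions (17.1%) lay within 1000 bp of a gene end and 33480 (36.7%) lay outside genes and away from their ends. The rule used positions only, not the comparison of the doses, but it was chosen with earlier results of these data known. The 4 samples were splenic NK cells of wild-type C57BL/6 mice, kept for 72 hours in a high dose (HD, 2 biological replicates) or a low dose (LD, 2 biological replicates) of interleukin-15 (IL-15). The labels give no concentrations. Open chromatin was mapped by ATAC-seq, which tags accessible DNA with a transposase, from about 75,000 cells per replicate according to the labels.

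Only positions are given in the deposited tables, for all accessible regions and for those the authors called up or called down between doses. Signal by sample, fold changes and p-values were not in the tables analysed, so the spread between replicates could not be measured, the depth is unknown, and the cell type could not be checked against marker levels. Which dose served as the reference is not given in the sources used here, so the lists keep their deposited names. Over all regions, the authors' deposited up list held 4.21%, the down list 1.4%, and both together 5.61%. Shares below carry 95% Wilson intervals, which cover counting error only. Regions of the same gene are not independent, so no test over regions was made and every comparison is a description.

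As background, IL-15 signals through receptor chains shared with IL-2 to JAK kinases and STAT5 and sustains NK cell survival, growth and cytotoxicity. Accessible regions inside genes, mostly in introns, include enhancers that act on the surrounding gene or on another gene, start sites of shorter transcripts, and start sites of antisense or other noncoding RNAs. A long gene offers more room for such elements than a short one, and regions deep in a gene lie far from the main promoter.

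Some gene-interior regions hold a transcription start site of their own, from a RefSeq table of start sites (GRCm38.p6) that covered the chromosomes of 40757 gene-interior regions, and these are the regions whose sequence can be shown. The authors' up list held 25 such start sites inside gene-interior regions and the down list 12. In the 250 bases before each start, 8 motifs were searched on either strand. The AP-1 letters TGANTCA include TGACTCA and TGAGTCA, the binding sequences of FOS, JUN and BATF proteins. These letters stood in 8 of the 25 windows in up regions (32%, interval 17.2 to 51.6%) and in 0 of the 12 in down regions (up to 24.2%). In unlisted gene-interior regions they stood in 90 of 1676 windows (5.37%, 4.39 to 6.55%). The difference between up and unlisted regions was 26.6 percentage points (Newcombe 95% interval 11.8 to 46.2). They stood in 6.75% of all 32851 windows of the table. All 8 windows had the match inside the accessible region itself. The windows of up regions that hold the AP-1 letters at a start of the surrounding gene are shown first, each 5′ to 3′ and ending at the base before the start site, with matches to any searched motif in capitals.
Adgrg1, chr8:94984149-94984398, plus strand: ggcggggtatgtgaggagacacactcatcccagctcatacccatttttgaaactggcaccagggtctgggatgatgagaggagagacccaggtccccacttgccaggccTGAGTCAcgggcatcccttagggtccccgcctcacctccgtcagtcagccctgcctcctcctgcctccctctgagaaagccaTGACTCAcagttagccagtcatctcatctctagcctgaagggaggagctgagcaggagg
Ccr4, chr9:114496545-114496794, minus strand: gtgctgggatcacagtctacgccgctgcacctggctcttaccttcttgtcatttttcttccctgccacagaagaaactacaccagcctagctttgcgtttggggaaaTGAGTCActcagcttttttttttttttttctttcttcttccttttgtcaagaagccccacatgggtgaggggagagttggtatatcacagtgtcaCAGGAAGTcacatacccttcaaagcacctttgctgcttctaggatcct
Dclk1, chr3:55461478-55461727, plus strand: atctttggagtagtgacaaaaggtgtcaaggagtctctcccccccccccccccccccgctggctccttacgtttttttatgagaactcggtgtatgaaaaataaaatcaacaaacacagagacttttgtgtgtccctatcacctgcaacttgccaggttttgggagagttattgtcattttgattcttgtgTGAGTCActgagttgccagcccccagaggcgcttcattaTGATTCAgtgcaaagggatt
Sgms1, chr19:32211014-32211263, minus strand: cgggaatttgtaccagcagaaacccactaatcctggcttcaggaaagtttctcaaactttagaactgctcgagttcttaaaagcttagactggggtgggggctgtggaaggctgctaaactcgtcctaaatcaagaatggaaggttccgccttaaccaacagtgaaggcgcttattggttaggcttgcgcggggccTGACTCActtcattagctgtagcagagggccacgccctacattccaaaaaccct
Shc1, chr3:89421371-89421620, plus strand: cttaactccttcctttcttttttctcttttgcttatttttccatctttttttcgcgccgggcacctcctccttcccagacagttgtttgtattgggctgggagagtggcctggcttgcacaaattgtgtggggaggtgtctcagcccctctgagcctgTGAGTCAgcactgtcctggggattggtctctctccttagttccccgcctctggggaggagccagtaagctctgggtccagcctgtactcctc
Tiam1, chr16:89974700-89974949, minus strand: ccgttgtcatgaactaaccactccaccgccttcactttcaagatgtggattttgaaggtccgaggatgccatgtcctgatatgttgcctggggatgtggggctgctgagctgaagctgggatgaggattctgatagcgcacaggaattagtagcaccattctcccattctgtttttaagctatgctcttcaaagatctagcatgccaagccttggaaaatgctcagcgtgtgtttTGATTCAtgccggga
Dnmt3aos within Dnmt3a, chr12:3862245-3862494, minus strand: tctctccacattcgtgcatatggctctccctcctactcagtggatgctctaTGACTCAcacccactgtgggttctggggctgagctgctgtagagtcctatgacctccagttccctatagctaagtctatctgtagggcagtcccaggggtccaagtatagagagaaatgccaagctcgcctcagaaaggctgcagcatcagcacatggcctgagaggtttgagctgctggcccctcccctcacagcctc

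In the Adgrg1 window, which precedes an internal start of an adhesion G protein-coupled receptor gene, TGAGTCA began 141 bases and TGACTCA 59 bases before the start. Dclk1, which encodes a doublecortin-like kinase, also had a pair of matches, TGAGTCA at 59 and TGATTCA at 20 bases. In Ccr4, a chemokine receptor gene, TGAGTCA at 143 bases was joined by CAGGAAGT, the ETS letters, at 48 bases. The remaining matches were single: TGACTCA at 54 bases in Sgms1 (sphingomyelin synthase), TGAGTCA at 92 bases in Shc1 (a signalling adaptor) and TGATTCA at 15 bases in Tiam1 (an activator of the GTPase Rac). Dnmt3aos is a noncoding RNA gene on the strand opposite Dnmt3a, which encodes a DNA methyltransferase, and its window had TGACTCA at 199 bases. The other window with these letters preceded the noncoding gene Gm39853 within Gm50595.

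The windows of up regions also had fewer CG dinucleotides, with a median of 4 against 13 in unlisted regions, and 6.5 in down regions. Among windows with at most 8 CG, the AP-1 letters stood in 8 of 24 windows of up regions (33.3%) and 50 of 568 of unlisted regions (8.8%). Among start sites of the surrounding gene itself, the counts were 6 of 15 (40%) and 68 of 1349 (5.04%). With only C or G allowed as the middle base, they were 7 of 25 (28%) and 69 of 1676 (4.12%). These letters were singled out after the counts for all 8 motifs had been seen.

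The ETS letters CAGGAAGT stood in windows of both lists: 5 of 25 in up regions (20%, 8.86 to 39.1%), 4 of 12 in down regions (33.3%, 13.8 to 60.9%) and 76 of 1676 in unlisted regions (4.53%, 3.64 to 5.64%). In 4 of the 5 windows of up regions, and in all 4 of down regions, the match lay inside the accessible region. The 4 windows in down regions hold only 3 separate matches, because 2 starts of Pafah2 lie in the same region and their windows share a single match, so that interval treats as independent what is not. By gene the count is 3 of 11. The windows at the starts of Abcg2, a membrane transporter gene, and Pafah2, a phospholipase gene, are shown in the same way.
Abcg2, chr6:58596422-58596671, plus strand: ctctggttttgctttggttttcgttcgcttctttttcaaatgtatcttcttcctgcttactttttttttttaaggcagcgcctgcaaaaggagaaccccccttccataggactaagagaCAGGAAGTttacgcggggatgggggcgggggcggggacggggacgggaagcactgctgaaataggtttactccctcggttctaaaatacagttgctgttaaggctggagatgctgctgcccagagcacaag
Pafah2, chr4:134402662-134402911, plus strand: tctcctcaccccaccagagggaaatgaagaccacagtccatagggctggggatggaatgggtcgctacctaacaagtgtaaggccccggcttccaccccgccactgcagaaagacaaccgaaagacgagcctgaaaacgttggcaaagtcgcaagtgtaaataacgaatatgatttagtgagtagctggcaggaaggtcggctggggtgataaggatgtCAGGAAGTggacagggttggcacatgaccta

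In Abcg2 the match began 131 bases and in Pafah2 31 bases before the start. The RUNX letters TGTGGTT, the STAT letters TTCNNNGAA and the NF-kB motif stood in 0 of the 25 windows in up regions and 0 of the 12 in down regions, against 4.18%, 5.31% and 1.37% of windows in unlisted regions. At these numbers a count of 0 allows up to 13.3% and 24.2%. The T-box letters TCACACCT stood in 1 window of each list, the TCF/LEF letters CTTTGAT in 1 and 0, and the KLF letters GGGTGTGG in 2 and 0. The shares of all windows in the table were 4.4% (RUNX), 7.02% (STAT), 1.21% (NF-kB), 1.12% (T-box), 3.21% (TCF/LEF), 3.2% (KLF) and 2.69% (ETS). A match is a description of the letters and does not show binding.

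Regions at an internal start of the surrounding gene had smaller listed shares than regions with no start. Of 1189 such regions, 15 were up (1.26%, 0.766 to 2.07%) and 6 were down (0.505%, 0.231 to 1.1%). Of 39334 regions holding no start site, 4.26% were up (4.07 to 4.47%) and 1.67% down (1.55 to 1.8%). Regions at starts were wide, with a median of 890 bp against 350 bp. Weighted to the same widths, regions without a start were up in 3.72% and down in 2.38% of cases. Regions holding only a start of another gene, nearly always a noncoding RNA gene, numbered 234, with 10 up (4.27%, 2.34 to 7.69%) and 5 down (2.14%, 0.916 to 4.9%). Their intervals overlapped those of regions without a start.

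Up regions at a start of the surrounding gene included those of Zbtb32, a zinc finger transcription factor gene of activated lymphocytes (chr7:30592908-30593874, 967 bp), and Kmt5a, a histone H4 lysine methyltransferase gene (chr5:124446109-124446914, 806 bp). Those of Adam8, a cell surface metalloprotease gene, and Slc25a22, a mitochondrial glutamate carrier gene, were 438 and 218 bp wide. Down regions at such starts lay in Fyb, which encodes an adaptor of lymphocyte adhesion (chr15:6579707-6579922), Usp6nl, Ifit1bl1, Zfp976, Abcg2 and Pafah2. At Atp10a, a phospholipid flippase gene, a down region of 1549 bp held the start of the noncoding gene Gm39019 (chr7:58730095-58731643). Of 27 gene-interior regions over a miRNA hairpin of the RefSeq table, 0 were listed, too few for a comparison with the 5.81% of all gene-interior regions that were.

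Gene-interior regions were in the up list in 1758 cases (4.17%, 3.98 to 4.36%) and in the down list in 691 (1.64%, 1.52 to 1.76%), against 4.21% and 1.4% of all regions. They supplied 45.7% of the authors' up list and 54.2% of the down list. Outside genes, 5.62% were up (5.37 to 5.87%) and 1.46% down (1.34 to 1.59%). The up share was thus lower inside genes, while the down intervals overlapped. Within 10 classes of width, the down share was higher inside genes than outside in 7 and lower in 3, with overlapping intervals. The mean over genes of the down share was 1.11%, a measure with no counterpart outside genes. Near gene ends only 1.33% were up (1.16 to 1.52%) and 0.609% down (0.498 to 0.743%). Up regions made up 71.8% of listed gene-interior regions (70 to 73.5%) and 79.4% of listed regions outside genes (77.7 to 80.9%). Just inside the limit, over 1000 to 1500 bp from a gene end, 2.84% of 1587 regions were up and 1.2% down. Just outside it, over 500 to 1000 bp, 1.92% of 1925 regions within genes were up and 0.935% down.

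The listed share differed with the width of the region. Gene-interior regions were 150 to 3088 bp wide, with a median of 360 bp. The median was 446 bp in the up list (quartiles 345 and 571), 528 bp in the down list (390 and 694) and 350 bp among the rest (237 and 562). Of the regions 481 to 590 bp wide, 8.18% were up (7.41 to 9.01%) and 2.93% down (2.48 to 3.47%). Of those 150 to 197 bp wide, 0.289% were up and 0.31% down, and of the widest, from 975 bp, 1.32% and 1.55%. At 481 to 590 bp, the up share was 11.1% outside genes (10.1 to 12.2%) and 3.84% at gene ends (2.84 to 5.16%), so the order of the 3 positions was the same at that width. Median widths were alike across the classes of gene length (348 to 367 bp) and depth (349 to 367 bp) used below.

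**Figure D1:**
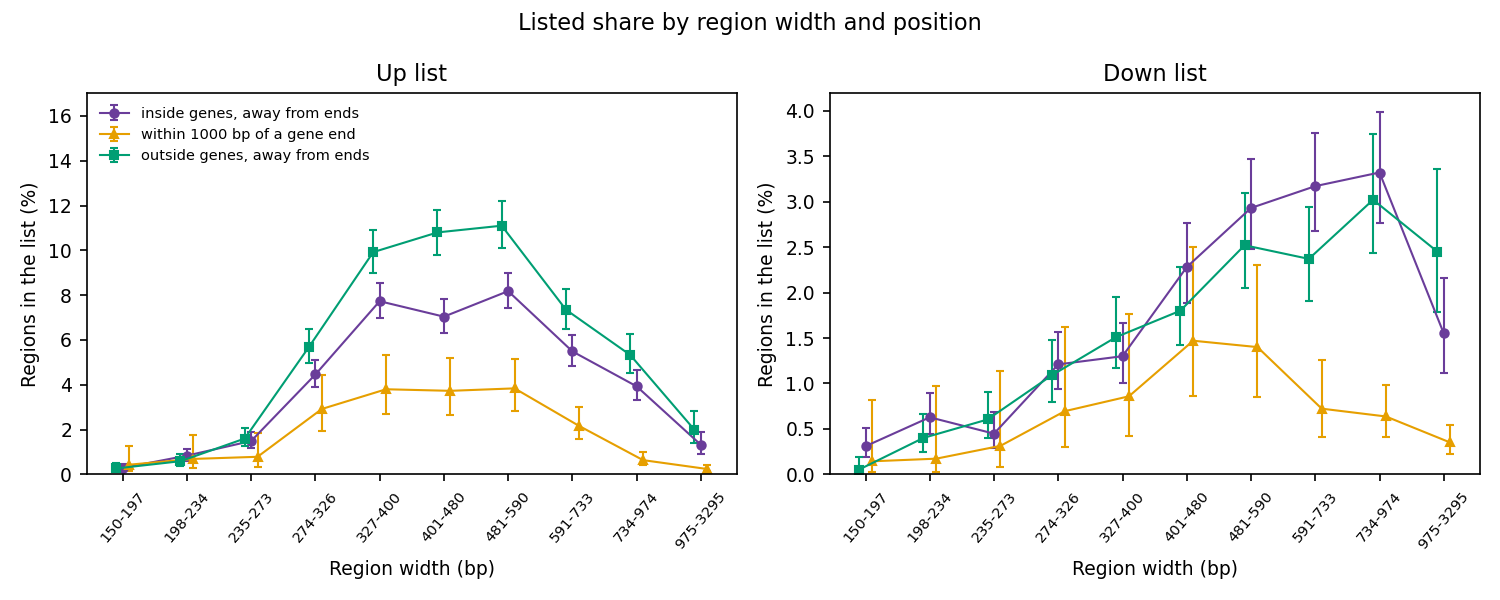
Share of regions in the up list (left) and the down list (right), in percent of the regions of each width class, for regions inside genes, at gene ends and outside genes; the 10 width classes hold near-equal numbers of all regions and bars are 95% Wilson intervals. From 327 to 974 bp the up share inside genes lies between that outside genes and that at gene ends, and in the down list the intervals inside and outside genes overlap in all 10 classes.

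The up share was higher in longer genes. In host genes of up to 30 kb, 265 of 7401 regions were up (3.58%, 3.18 to 4.03%). The shares were 4.07% (3.76 to 4.39%) over 30 to 100 kb, 4.23% (3.91 to 4.58%) over 100 to 300 kb, and 5.07% (4.52 to 5.69%) over 300 kb, where 277 of 5461 regions were up. The difference between the longest and the shortest class was 1.49 percentage points (Newcombe 95% interval 0.782 to 2.22). With every gene weighted equally it was 0.781 points, and with genes of any biotype as hosts 0.751 points. The down share was 1.39% (1.15 to 1.68%) in the shortest class and 1.83% (1.51 to 2.22%) in the longest, a difference of 0.439 points (0.00305 to 0.9). Without the 10 genes with the most listed regions it was 0.0864 points.

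Because a long gene holds more regions, the share of genes with a listed region differed far more between length classes than the share of regions. Host genes of up to 30 kb held 1.77 gene-interior regions each, and 5.8% of these 4187 genes had an up region and 2.17% a down region. The 438 host genes over 300 kb held 12.5 regions each, and 34% had an up region and 15.8% a down region.

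Regions deep in a gene were listed more often than those near its ends. Depth is the distance from the region to the nearer end of its host gene. Within 5 kb of an end, 269 of 7855 regions were up (3.42%, 3.04 to 3.85%) and 99 were down (1.26%, 1.04 to 1.53%). Over 5 to 20 kb the up share was 3.78% (3.48 to 4.1%), over 20 to 50 kb 4.7% (4.31 to 5.11%), and over 50 kb 4.83% (4.41 to 5.3%). The down share was 1.59%, 1.79% and 1.87% in the same classes. Between the deepest and the shallowest class, the up share differed by 1.41 points (0.806 to 2.01) and the down share by 0.608 points (0.231 to 0.984). The up difference was 0.719 points with genes of any biotype as hosts and 0.748 points by depth relative to gene length, by which the down difference was 0.351 points. Median depths were 22.8 kb in the up list, 21.6 kb in the down list and 17.5 kb among the rest.

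**Figure D2:**
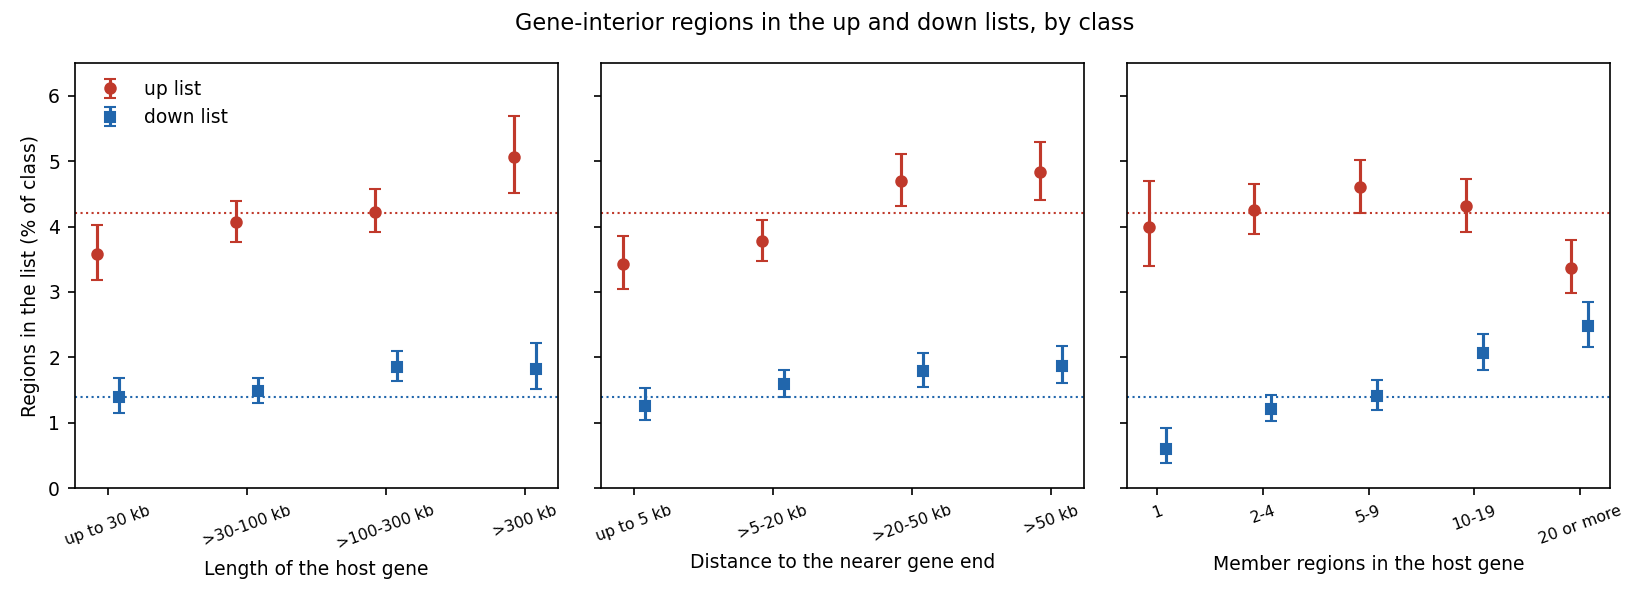
Share of gene-interior regions in the up list (circles) and the down list (squares), in percent of each class, by length of the host gene, by distance to the nearer gene end and by the number of gene-interior regions in the gene; bars are 95% Wilson intervals and dotted lines mark the shares over all regions of the series (4.21% and 1.4%). The up share is higher in longer genes and at greater depth, and the down share goes from 0.6% to 2.48% with the number of regions in the gene.

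Length and depth go together, so each was read within classes of the other. In genes over 100 to 300 kb, the up share was 2.78% within 5 kb of an end (1.9 to 4.04%), 3.28% over 5 to 20 kb (2.7 to 3.99%), 4.69% over 20 to 50 kb (4.16 to 5.28%) and 4.57% over 50 kb (4.02 to 5.19%). In genes over 30 to 100 kb it was 3.67%, 3.91% and 4.57% in the first 3 of these depth classes. Read the other way, at depths over 20 to 50 kb the up share was 4.57%, 4.69% and 5.43% in the 3 classes of gene length that reach so deep, with overlapping intervals. Within 5 kb of an end, the 2 classes of long genes had the lowest up shares, 2.78% and 2.56%, the latter from 5 of 195 regions. In host genes over 100 kb, the deepest and shallowest classes differed by 2.09 points in the up share and by 1.16 points in the down share, more than over all genes. The order of the down share by depth differed between the length classes. In genes over 30 to 100 kb it went up from 1.28% (0.902 to 1.81%) through 1.43% to 1.7% (1.36 to 2.12%), with overlapping intervals. There was no steady order in the others. The down share was 1.4% and 1.39% in the 2 depth classes of genes up to 30 kb. It was 0.641% (0.294 to 1.39%), 2.29%, 1.78% and 1.9% in the 4 of genes over 100 to 300 kb, and 1.03%, 1.37%, 2.33% and 1.82% in those of genes over 300 kb.

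**Figure D3:**
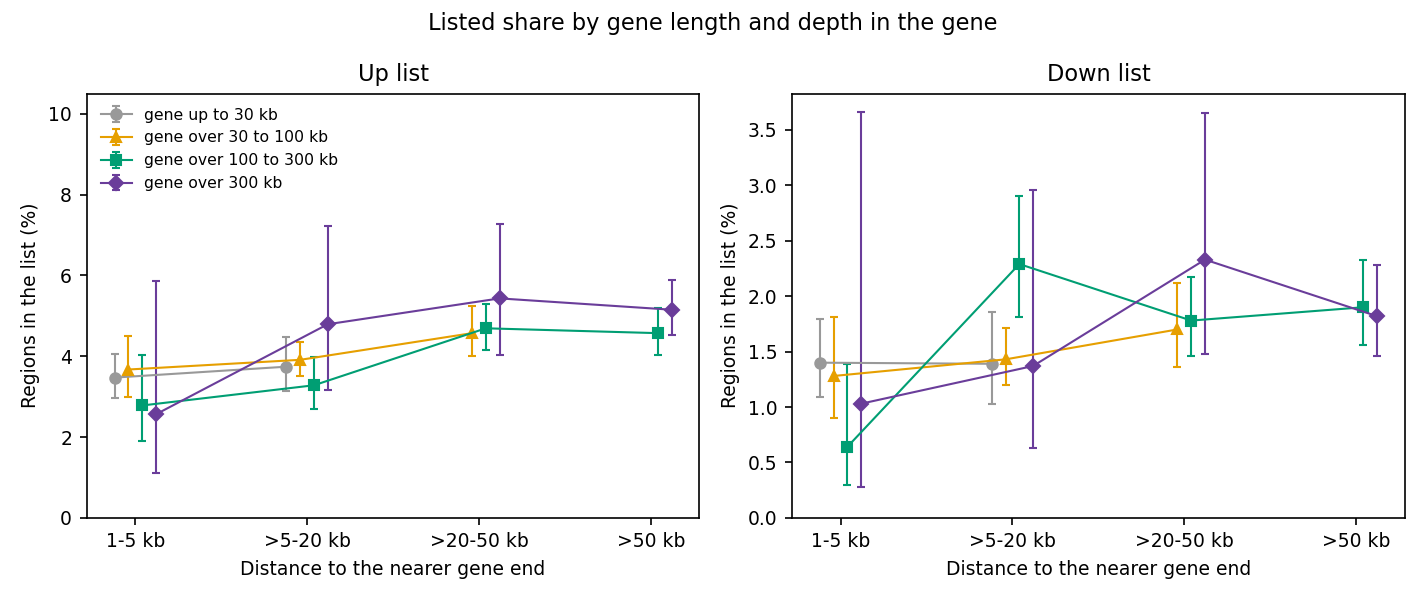
Share of gene-interior regions in the up list (left) and the down list (right), in percent, by distance to the nearer gene end, with a line for each class of gene length and 95% Wilson intervals. Up shares go from 2.78% to 4.57% with depth in genes over 100 to 300 kb, while the up intervals of different gene lengths overlap at the same depth.

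The 5′ and 3′ ends were then told apart in the host genes with a strand in the table, which held 33613 regions (79.7%). Each gene was cut into 10 equal parts from the 5′ end. The up share was 2.89% in the part at the 5′ end (2.38 to 3.51%), 3.43% in the next (2.91 to 4.05%) and between 4% and 5.09% in the other 8. At the 3′ end it was 4.63% (3.87 to 5.53%). The down share ranged from 1.3% at the 3′ end to 2% in the sixth part, with 1.39% at the 5′ end. In distance from the 5′ end, the up share went from 3.02% within 5 kb (2.53 to 3.6%) through 3.7% and 4.17% to 4.94% beyond 50 kb (4.57 to 5.32%), and the down share from 1.25% (0.949 to 1.65%) through 1.53% and 1.58% to 1.75% (1.54 to 1.99%). In distance from the 3′ end the up share was 3.93%, 3.9%, 4.77% and 4.1% in the same classes, and the down share 1.38%, 1.4%, 1.56% and 1.76%.

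**Figure D4:**
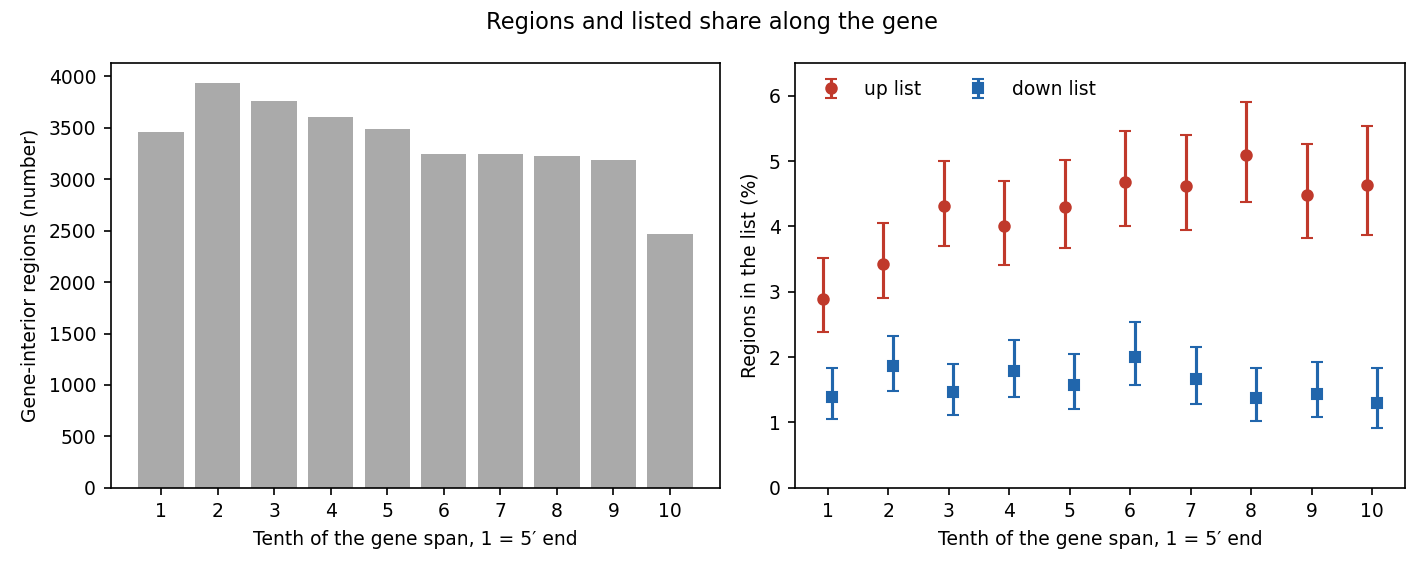
Number of gene-interior regions (left) and their share in the up and down lists in percent (right) in 10 equal parts of the host gene, part 1 being at the 5′ end; bars on the points are 95% Wilson intervals. The up share is lowest in parts 1 and 2, at 2.89% and 3.43%, and the down share stays between 1.3% and 2%.

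The down share was also higher in genes with more accessible regions, a pattern noticed in the data. In genes with a single gene-interior region, 21 of 3499 regions were down (0.6%, 0.393 to 0.916%). The share was 1.21% with 2 to 4 regions, 1.41% with 5 to 9, 2.06% with 10 to 19, and 2.48% (2.16 to 2.85%) with 20 or more, where 193 of 7768 regions were down. The difference between the last and the first of these classes was 1.88 points (1.43 to 2.31), and weighted to the widths of all regions it was 1.71 points. The up share went from 4% (3.4 to 4.7%) over 4.6% with 5 to 9 regions to 3.37% (2.99 to 3.8%) with 20 or more, a difference of -0.628 points whose interval includes 0 (-1.43 to 0.107). Up regions were thus 87% of the listed regions in genes with 1 region (80.9 to 91.3%) and 57.6% in genes with 20 or more (53 to 62%).

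Within genes over 100 to 300 kb, the down share was 0.644% with 2 to 4 regions (0.327 to 1.27%) and 2.72% with 20 or more (2.27 to 3.25%), while the up share was 5.88% (4.7 to 7.33%) and 2.53% (2.1 to 3.05%). With 1 region, in 150 such genes, the shares were 0.667% down and 4.67% up. In genes over 300 kb, the up share was 3.04% with 2 to 4 regions (1.48 to 6.15%), 6.87% with 5 to 9 (5.13 to 9.16%) and 4.66% with 20 or more (3.98 to 5.45%). The down share there was 1.3% (0.445 to 3.76%), 0.491% (0.167 to 1.43%) and 2.09% (1.65 to 2.65%), so neither list had a steady order in these genes. The lists also differed in the distance to the nearest other accessible region. In the up list its median was 3.6 kb, in the down list 2.07 kb, and among the rest 2.89 kb. With a neighbour within 2 kb, 3.56% of regions were up (3.29 to 3.85%) and 1.95% down (1.75 to 2.16%). With the nearest neighbour over 10 to 50 kb away, 5.05% were up (4.56 to 5.59%) and 1.1% down (0.879 to 1.37%).

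Gene-interior regions lay in 10136 genes, 46.3% of the protein-coding genes of the table. An up region lay in 1322 genes, a down region in 543 and both in 87. A single listed region was found in 1333 genes, and 445 genes held at least 2. Of those 445, 270 held only up regions, 88 only down regions and 87 a mixture, so that 80.4% were in a single list. If pairs of listed regions were formed without regard to gene, 59.5% would be in the same list. That value is for pairs, as in the next sentence, and not for genes. It takes no account of the number of regions per gene. Neighbouring listed regions of the same gene were in the same list in 137 of 139 pairs less than 5 kb apart (98.6%, 94.9 to 99.6%), in 79% of 276 pairs 20 to 100 kb apart (73.8 to 83.4%) and in 73.7% of 76 pairs 100 kb or more apart (62.8 to 82.3%).

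The 8 genes with the most up regions were long, from 110 kb (Cnih3) to 954 kb (Sox5). Arnt2, which encodes a basic helix-loop-helix PAS transcription factor, had 7 of its 15 regions in the up list and 0 in the down list. They lay from 23.6 to 139 kb from the gene's 5′ end, and a pair of them (chr7:84340853-84341461 and chr7:84342401-84342675) was 0.939 kb apart. Creb5, a bZIP transcription factor gene of the CREB family, had 6 of 21 regions up, between 59 and 168 kb into its 413 kb. The 6 lay in the 5′ part of the gene, between 14.3% and 40.8% of its length.

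Cnih3, which encodes an auxiliary subunit of AMPA receptors, had 5 of 11 regions up, of which 3 lay together from 20.8 to 24.3 kb into the gene. Bcr, which encodes a kinase and GTPase regulator, had 5 of 15, spread from 9.59 to 110 kb. Slc24a3, an exchanger of sodium, potassium and calcium, had 5 of 20. Tiam1 had 5 of 25, among them the region at its internal start, 171 kb from the 5′ end, and a second region 0.801 kb from it (chr16:89972944-89973594). Sorcs2, a sorting receptor gene, had 5 up regions and 1 down region of 21, and Sox5, an SRY-related transcription factor gene, 5 up of 43.

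Among the 8 genes with the most down regions, Fhit led with 7 of 23. Fhit encodes a diadenosine triphosphate hydrolase and spans 1612 kb, and its down regions lay from 635 to 1200 kb from the 5′ end, far from both ends. It held the deepest down region of all, 662 kb from the nearer gene end (chr14:10499838-10500109). Tox, an HMG-box regulator of lymphocyte development, had 6 of 26 regions down, 271 to 1129 bp wide, and 0 up. Ikzf1, which encodes Ikaros, a zinc finger regulator of lymphoid cells, had 4 of 24 down although it spans only 88 kb. Tbc1d1, a regulator of glucose transporter traffic, had 4 of 22 down, all in the 3′ part of the gene, from 68.2% to 95.3% of its length.

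Atp10a had 5 of 34 regions down and 0 up. Nrxn3, a neurexin gene of 1612 kb, had 5 down and 1 up of 40, and 4 of the 5 lay between 1227 and 1271 kb from its 5′ end. Osbpl3, an oxysterol-binding protein gene, had 4 down and 1 up of 30. Arhgef3, a guanine nucleotide exchange factor gene, had 4 of 38 down, all beyond 79.8% of its length. Genes with many gene-interior regions varied in how many were listed. Foxp1, a forkhead transcription factor gene, held 83 regions with 0 up and 1 down, Pde4d 64 with 3 up, and Mgat5 46 with 0 listed, whereas Nav2 held 53 with 4 up and 3 down.

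**Figure D5:**
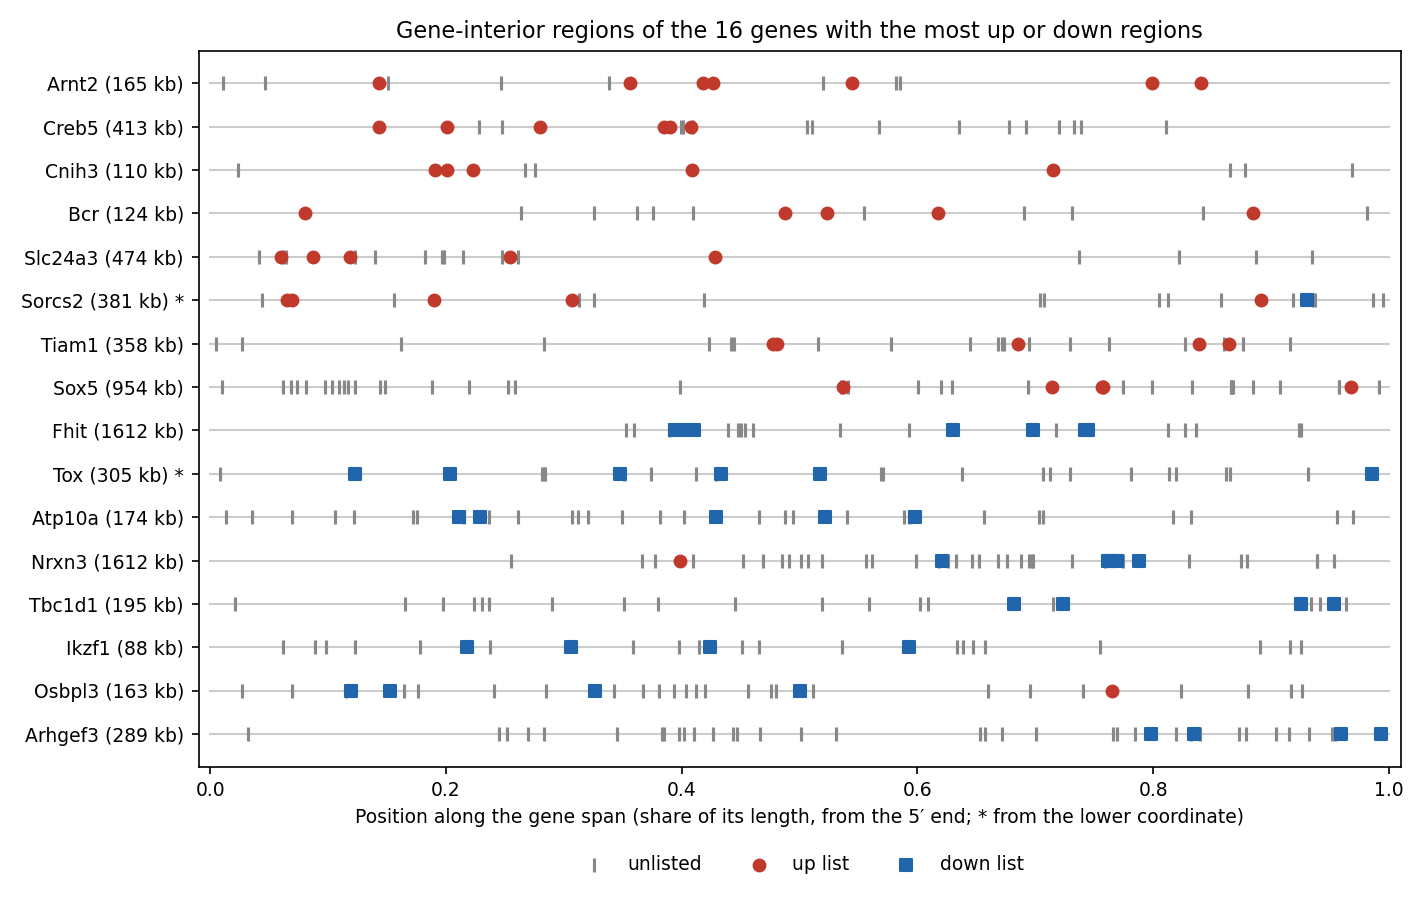
Gene-interior regions of the 8 genes with the most up regions (upper rows) and the 8 with the most down regions (lower rows), by position along the gene as a share of its length, with unlisted regions as ticks, up regions as circles, down regions as squares and genes without a strand (*) drawn from the lower coordinate. Of the 7 up regions of Arnt2 and the 7 down regions of Fhit none has a region of the opposite list in the same gene, whereas Sorcs2, Nrxn3 and Osbpl3 hold both kinds.

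The deepest up region lay 981 kb from the nearer end of Dlg2, which encodes a synaptic scaffold protein and spans 1973 kb (chr7:91457221-91457596). The widest up region was 1690 bp long, 25.4 kb inside Gpr176, an orphan receptor gene (chr2:118302483-118304172). The widest down region was 1696 bp long, 31.8 kb inside Dop1b (chr16:93777103-93778798).

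Genes of lymphocyte function were read through 9 lists of 220 genes in all, of which 199 held a gene-interior region. The lists were chosen with earlier results of these data known, so their shares are a description and not independent evidence. Over all lists, 37 of 1844 regions were up (2.01%, 1.46 to 2.75%) and 73 down (3.96%, 3.16 to 4.95%), against 4.17% and 1.64% of all gene-interior regions. These genes hold many regions each, with a median of 6. All gene-interior regions weighted to the same numbers of regions per gene were up in 3.91% and down in 2.03% of cases. The matched share given for each list below is this measure for its own genes. It does not adjust for width. Median region width was 394 bp over all lists and 360 bp over all gene-interior regions. By list it ran from 338 bp (nutrient uptake, glycolysis and mTOR) to 434 bp (cytokine receptors and JAK-STAT).

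Among cytokine receptors and JAK-STAT genes, 0 of 146 regions were up, which allows a share of up to 2.56%, and 8 were down (5.48%, 2.8 to 10.4%) in 6 of 25 genes. The matched shares were 4.04% up and 1.83% down. Ifngr1, a chain of the interferon gamma receptor, had 2 of 5 regions down, both within 2.52 kb of its 5′ end. Jak1, a kinase of the IL-15 pathway, had 2 of 29 down, of 885 and 945 bp. Il7r had 1 of 2, 1.09 kb inside the gene (chr15:9528059-9528851). Il2rb, Il18r1 and Jak2 had 1 each.

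Among lymphoid transcription factors, 28 of 473 regions were down (5.92%, 4.13 to 8.42%) and 7 up (1.48%, 0.719 to 3.02%), with matched shares of 2.23% and 3.74%. A down region lay in 15 of 32 genes and an up region in 4. Next to Tox and Ikzf1, Ikzf2, which encodes the Ikaros relative Helios, had 3 of 18 down. Rora and Zeb2 had 2 each, and Bach2, a repressor with 50 regions, 2 down and 1 up. Nfatc2, a calcium-regulated factor, had 4 of 18 regions up and 0 down, from 6.51 to 109 kb from its 5′ end, and Zbtb32 1 of 3 up and 0 down. Tcf7, which encodes TCF-1, had 1 up and 1 down of 12, in regions 320 and 804 bp wide (chr11:52260941-52261260 and chr11:52265558-52266361).

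Among NK and checkpoint surface receptors, 2 of 79 regions were up (2.53%, 0.697 to 8.77%) and 4 down (5.06%, 1.99 to 12.3%), with matched shares of 4.39% and 1.44%. The 2 up regions lay in the gene of the inhibitory receptor TIM-3, Havcr2, at 6.96 and 11.9 kb from its 5′ end. In Ncr1, the gene of the activating receptor NKp46, both gene-interior regions were down, at 3.85 and 5.12 kb. Cd226, which encodes DNAM-1, had 2 of 16 down. Gzma, which encodes granzyme A and spans 7.16 kb, had 3 of 4 down, each 160 to 236 bp wide. They were the 3 listed regions among 22 in cytotoxic effectors and cytokines, where 13.6% were thus down (4.75 to 33.3%), all in 1 of 13 genes, and 0 up (up to 14.9%), with matched shares of 0.987% and 4.16%.

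Proximal lymphocyte signalling genes held 8 up (1.77%, 0.902 to 3.46%) and 11 down (2.44%, 1.37 to 4.31%) of 451 regions. The matched shares were 3.74% up and 2.26% down, so the down share was near that of all gene-interior regions. Fyn, a SRC-family kinase gene, had 3 of 46 down, of which a pair lay 0.315 kb apart at the middle of the gene (chr10:39469201-39469776 and chr10:39470092-39470595). Prkch, a protein kinase C gene, had 2 of 38 down, and Vav3, a guanine nucleotide exchange factor gene, 2 of 20 up. Among integrins, homing and chemokine receptors, 4 of 112 regions were up (3.57%, 1.4 to 8.82%) and 5 down (4.46%, 1.92 to 10%), with matched shares of 4.42% and 1.57%. S1pr5, a receptor for exit from tissues, had its single region down (chr9:21246381-21246713). The integrin genes Itgae, Itgb1 and Itga1 had 1 up region each, and Itga2 had 1 up and 1 down of 15.

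Chromatin regulators held 10 up (3.3%, 1.8 to 5.97%) and 7 down (2.31%, 1.12 to 4.69%) of 303 regions, near the matched shares of 3.89% and 2.06%. Tet2, which encodes a DNA demethylase, had 2 of 10 up. Hdac4, a histone deacetylase, had 2 of 24 down, 1 of them 1374 bp wide, and Chd7, a remodeller, 2 of 30. In nutrient uptake, glycolysis and mTOR genes, 5 of 149 regions were up (3.36%, 1.44 to 7.61%) and 6 down (4.03%, 1.86 to 8.51%), with matched shares of 4.04% and 1.89%. Of the 6 down regions, 4 were those of Tbc1d1. Slc7a5, which encodes an amino acid transporter, had its single region up, 8.8 kb inside the gene (chr8:121898120-121898883). Pfkp, a phosphofructokinase gene, had 2 down and 1 up of 14. TGF-beta receptors and SMADs held 1 up and 1 down of 109 regions, both in Tgfbr3 (0.917% each, 0.162 to 5.01%), with matched shares of 4.22% and 1.8%.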

How the data were processed

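ATAC-seq was performed on 4 samples, 2 in each dose group. The submitters' processing notes name BWA, ArchR, MACS2, HOMER 4.11.1 and the build mm10, without roles. Peak calling per sample or pooled, the differential test and its threshold are not given in the sources used here. The deposited tables hold region positions and a width in bp, and the authors' own lists of calls, with 0 columns of values per sample, so the planned fits of the doses and their alternatives were not run.

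The table of all regions had its starts raised by 1, after which all listed regions were identical to a region. Genes came from a RefSeq table (GRCm38.p6, the assembly of mm10), with 21887 protein-coding genes on the 21 chromosomes. A region inside several genes (391) went to the shortest. Python 3.11.15 was used. Functions were tested on simulated lists. Named genes are the 8 with the most up and the 8 with the most down gene-interior regions, and up to 3 of each per gene list, and other genes named were picked from their values. The members and gene lists were chosen with earlier results of these data known.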

Additional observations from a re-analysis of the deposited data

How the results depend on the processing

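No paired analysis was possible because no table carries a signal for each sample, and for the same reason no replicate could be left out and no stricter threshold, normalization or count filter could be tried on the authors' calls. The planned motif search in region sequences was not run. Of 88 alternatives to 9 results, 80 stayed within the 95% interval of the reported value, 8 moved outside it and 0 changed direction. The down share of 1.64% became 1.11% with each gene weighted equally. The difference in the up share between the longest and shortest genes (1.49 points) became 0.751 with genes of any biotype and 0.781 with each gene weighted equally. The difference in the up share by depth (1.41 points) became 0.719 with genes of any biotype, 0.748 by relative depth and 2.09 in host genes over 100 kb, where that in the down share (0.608 points) became 1.16. The difference in the up share between genes of 20 or more regions and genes of 1 (-0.628 points) became -2.14 in host genes over 100 to 300 kb. The cause of these shifts was not tested. The alternatives to the number of regions per gene and to the AP-1 letters, and the removal of regions at start sites, were chosen after seeing the data.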
